A study of Mus musculus with 18 samples.

Results

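The genes described here are the 6 mouse transcripts that carry the hairpins of miR-7a-1, miR-15b and miR-16-2, miR-26a, the miR-17 cluster, and miR-106b, miR-93 and miR-25. They are Hnrnpk, Smc4, Ctdspl, Ctdsp2, Mir17hg and Mcm7. They were taken by symbol, 6 of the 55450 genes of the deposited table, and each symbol matched 1 row. Expression was measured by mRNA-seq of poly(A) RNA from P19 cells, a mouse embryonic carcinoma line that grows as undifferentiated cells. There were 3 lines with 6 samples each, 18 in all. WT carries Dicer (+/+). HetKO carries Dicer (+/-), a clonal line in which a pair of guide RNAs truncated an allele of Dicer1. HM carries Dicer (HM/-) and was made from HetKO cells by placing E1797G, a hotspot mutation of the RNase IIIb domain, on the remaining full-length allele. No sample received a treatment. Each genotype is represented by 1 line, so genotype and line cannot be told apart. Nothing states that the 6 samples of a line were separate cultures, so all p-values measure only the spread between these samples.

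A miRNA starts as a hairpin inside a longer RNA. Many hairpins lie in introns of coding genes and are cut out by the nuclear enzyme Drosha while the host transcript is made, and others lie in exons of noncoding transcripts made for that purpose. Dicer then removes the loop of the hairpin, with its RNase IIIb domain cutting the 5p arm and its RNase IIIa domain the 3p arm. The host mRNA and its miRNAs can share a promoter, which was not tested for these genes, but the host mRNA does not pass through Dicer. Poly(A) libraries read the host and not the mature miRNA, so the values below are host transcript levels.

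The mature sequences of these hairpins are given because the studied strands differ by arm and because several hosts carry miRNAs with the same seed, bases 2 to 8, which pairs with targets. The sequences are from RefSeq on GRCm38.p6, are written 5′ to 3′, and have the seed in capitals. Hnrnpk carries the first pair.
miR-7a-5p: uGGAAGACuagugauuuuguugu
miR-7a-1-3p: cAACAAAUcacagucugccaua
Smc4 carries the next 3, of which both 5p strands have 1 seed.
miR-15b-5p: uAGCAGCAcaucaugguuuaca
miR-15b-3p: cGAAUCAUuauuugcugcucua
miR-16-5p: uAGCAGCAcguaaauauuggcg
Ctdspl and Ctdsp2 both carry miR-26a-5p, and their 3p strands differ.
miR-26a-5p: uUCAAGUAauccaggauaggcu
miR-26a-1-3p (Ctdspl): cCUAUUCUugguuacuugcacg
miR-26a-2-3p (Ctdsp2): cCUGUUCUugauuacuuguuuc
Mir17hg carries 6 hairpins, including those of the next 5.
miR-17-5p: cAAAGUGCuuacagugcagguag
miR-17-3p: aCUGCAGUgagggcacuuguag
miR-20a-5p: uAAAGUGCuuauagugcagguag
miR-19a-3p: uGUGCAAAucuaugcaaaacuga
miR-92a-3p: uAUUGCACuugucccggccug
Mcm7 carries the last 3.
miR-106b-5p: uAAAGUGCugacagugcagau
miR-93-5p: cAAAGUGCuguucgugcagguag
miR-25-3p: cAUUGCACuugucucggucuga

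Over all 6 hosts there were 27 mature miRNAs with 21 distinct seeds. The seed AAAGUGC was shared by 4 of them from 2 chromosomes, miR-17-5p and miR-20a-5p of Mir17hg and miR-106b-5p and miR-93-5p of Mcm7. The seed AUUGCAC was shared by miR-92a-3p of Mir17hg and miR-25-3p of Mcm7. Mir17hg and Mcm7 thus held both groups.

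The hairpins sit in the hosts in different ways. Hnrnpk encodes a poly(C)-binding protein that acts in transcription, splicing and translation. It lies on chromosome 13 from 58391142 to 58403343 on the minus strand of GRCm38, with Mir7-1 in intron 15, the last before the exon that holds the 3′ UTR. Smc4 encodes a core subunit of condensin, the complex that compacts mitotic chromosomes. It lies on chromosome 3 from 69004738 to 69034623 on the plus strand, with Mir15b and Mir16-2 in intron 5. Ctdspl and Ctdsp2 encode small phosphatases of the C-terminal domain of RNA polymerase II. Ctdspl lies on chromosome 9 from 118926453 to 119043998 on the plus strand with Mir26a-1 in intron 5, and Ctdsp2 on chromosome 10 from 126978717 to 126999975 on the plus strand with Mir26a-2, also in intron 5. Mcm7 encodes a subunit of the MCM helicase that unwinds DNA at replication origins. It lies on chromosome 5 from 138164583 to 138172422 on the minus strand, with Mir106b, Mir93 and Mir25 in intron 13. Mir17hg has no known protein and lies on chromosome 14 from 115042879 to 115046727 on the plus strand. Its 1 annotated transcript has 2 exons, and all 6 hairpins are in exon 2. Of the studied hairpins, those of Mir17hg lie in an exon in every annotated transcript of the host, Mir93 and Mir25 in an exon of 1 of the 3 Mcm7 transcripts that span them, and the others in introns only. Where a hairpin is exonic, the cut by Drosha falls within sequence that the spliced transcript would keep.

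**Figure D1:**
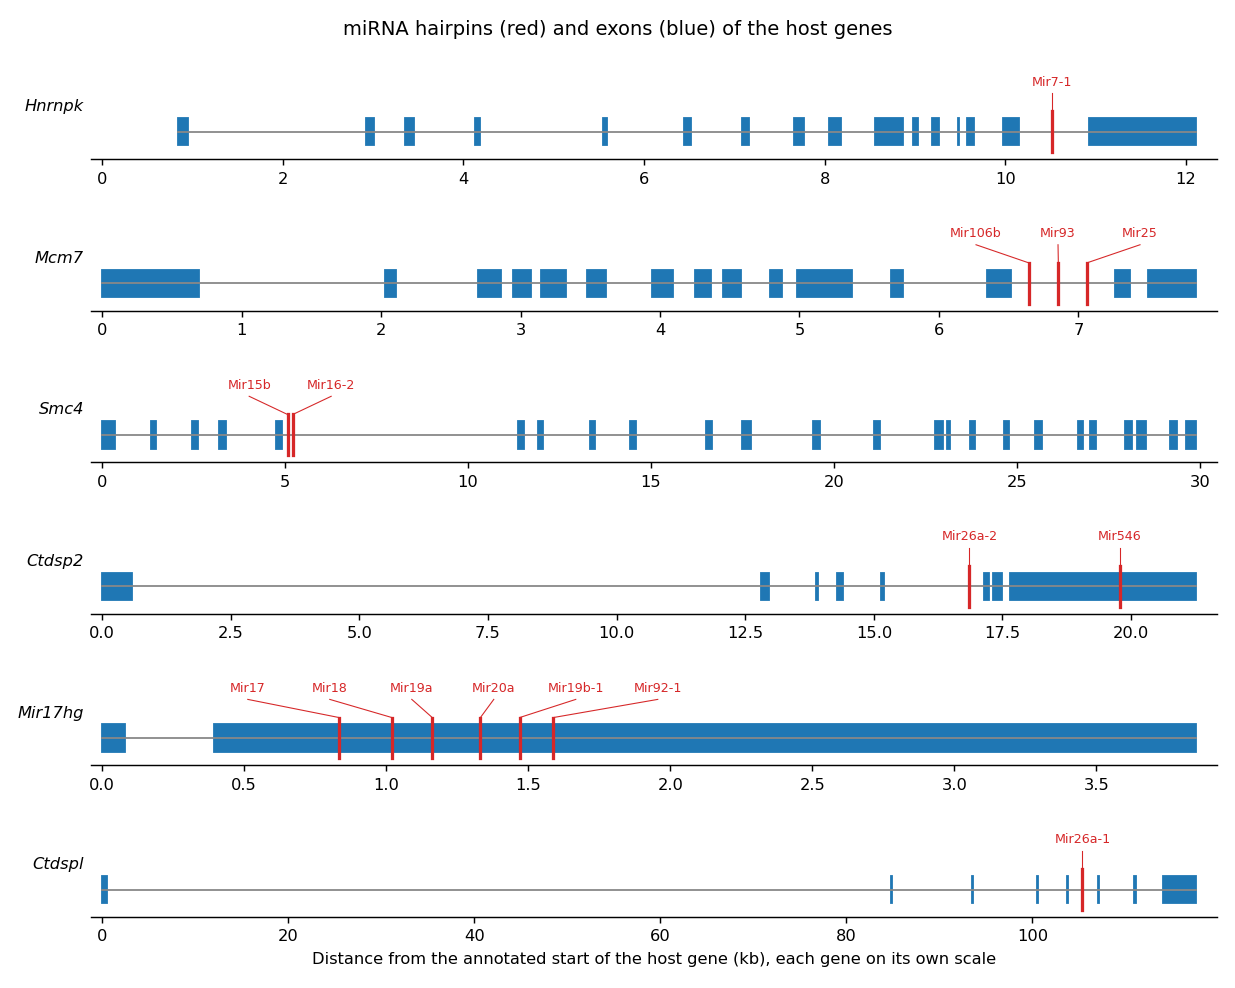
Exons (blue boxes) of 1 annotated transcript and miRNA hairpins (red lines) of each host gene, against the distance from the annotated start of the gene in kb. Each gene has its own scale. The hairpins lie in introns of the 5 coding hosts, apart from Mir546 in the last exon of Ctdsp2, and in exon 2 of Mir17hg.

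The table also has rows for the hairpins themselves. Of the 15 hairpin rows inside the hosts, 14 were listed at 0 TPM in all 18 samples. The exception was Mir546 in the 3′ UTR of Ctdsp2, listed at 0 in 7 samples and at up to 102.5 TPM in the others. All 72 stretches of 50 bases in that row are also in Ctdsp2, and its values are not interpreted.

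TPM scales reads by transcript length and by the total of the sample, so levels of different genes can be compared, but how many reads stand behind a level cannot be read from it. In bulk samples like these, fewer expressing cells and less RNA per cell cannot be told apart. In WT the order of the hosts was Hnrnpk at 749.6 ± 32.8 TPM, Mcm7 at 284 ± 11.3, Smc4 at 161 ± 10.1, Ctdsp2 at 52.9 ± 6.55, Mir17hg at 7.69 ± 1.196 and Ctdspl at 4.67 ± 0.561 (mean ± SD, n = 6 each). No neighbours in this order overlapped in WT, and the order of the means was the same in HetKO and HM. By its WT mean, Hnrnpk was above 98.6% of the 13955 genes that averaged 1 TPM or more over all 18 samples, and Ctdspl above 23.5%. The 2 hosts of the identical miR-26a-5p did not overlap in WT, where every Ctdspl value lay at 5.51 TPM or less and every Ctdsp2 value at 42.3 TPM or more. The coefficient of variation among samples of a line was 3.98% to 5.69% for Mcm7 in all 3 lines, and reached 34.9% for Ctdspl and 33.9% for Mir17hg in HetKO.

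Several facts of the whole series touch these values. Dicer1 was lower in HM than in WT without overlap, at 35.4 to 44.2 against 49.2 to 54.8 TPM, and overlapped WT in HetKO at 42.9 to 53.8 TPM. Embryonic carcinoma markers summed to 2819 to 3650 TPM over all samples, with 7 of 7 at or above a mean of 1 TPM in WT and HM and 6 of 7 in HetKO, where Zfp42 was below. Most of that sum was Pou5f1, at 1814 to 2244 TPM, and other markers of the list moved apart. Sall4 was at 20.2 to 27.9 TPM in WT, 34.3 to 69.5 in HetKO and 0.63 to 13.5 in HM. Utf1 and Sox2 were higher in all HM samples than in all WT samples, as were 10.6% of the 14043 genes. The 9 markers of differentiated cells summed to 46.8 to 55.8 TPM in WT, 44.0 to 138.0 in HetKO and 41.2 to 87.7 in HM, and Gata4, Sox17, Afp and Myog were below a mean of 1 TPM in every line. The highest sums came from T, a mesoderm gene, at 110.5 and 66.2 TPM in HetKO samples 2 and 5 against 0.94 to 9.13 in the other 4, and it was at 10.9 to 41.9 in HM and 3.45 to 8.60 in WT. The part of these markers in the results below was not tested. Samples were also matched into the most alike pairs of each line. These were 1 with 4, 2 with 5 and 3 with 6 in WT and HetKO, and 1 with 4, 2 with 3 and 5 with 6 in HM. The robust SD of log2 differences reached 0.0696 within pairs in HetKO, and was 0.164 or more between other samples of that line. In HM these values were 0.105 and 0.168. The WT pairs did not stand apart, at up to 0.0746 within pairs and from 0.073 between other samples. Each test below was repeated with the means of these pairs as 3 replicates per line.

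**Figure D2:**
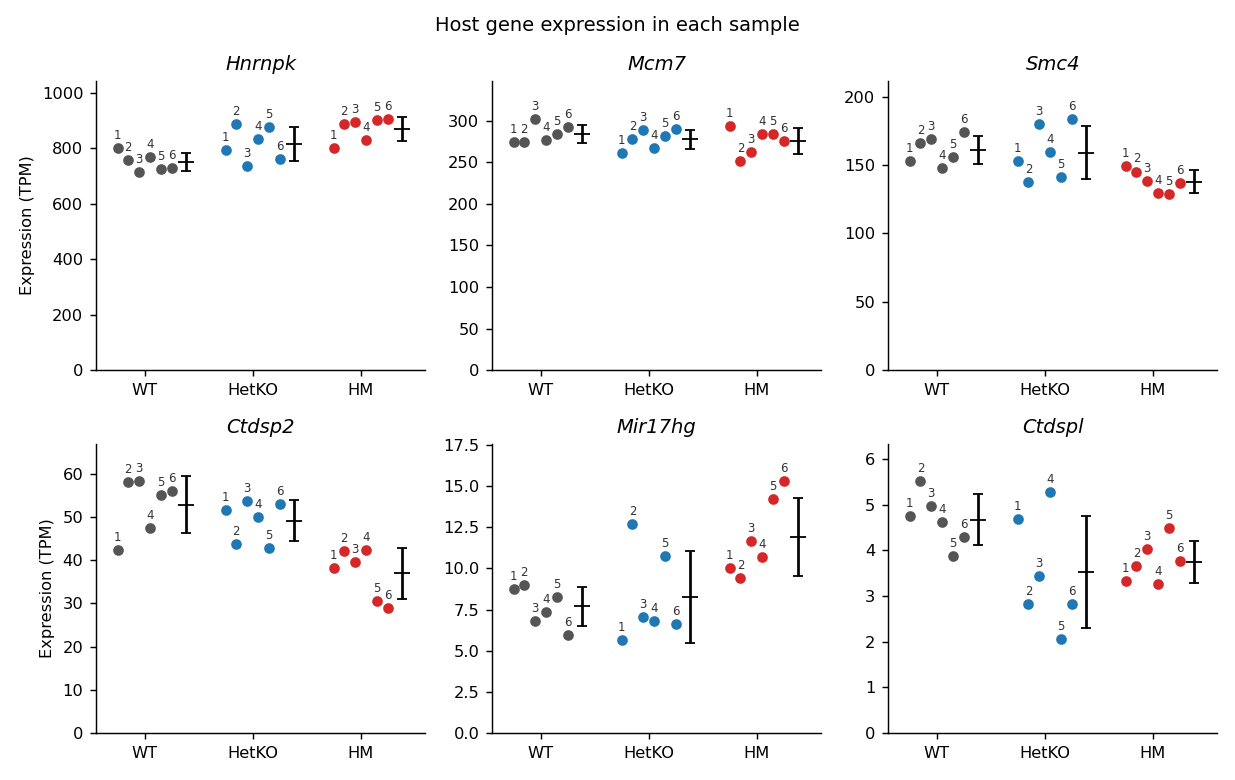
TPM of the 6 host genes in each sample, by line, with sample numbers above the points and the mean ± SD (n = 6) beside them. The HM samples lie above all WT samples for Mir17hg and reach below them for Ctdsp2 and Smc4, while the Mcm7 points of the lines cover the same range.

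The lines were compared on log2(TPM + 1), a scale on which changes of low genes are understated, with limma and an adjusted p threshold of 0.05 over all genes of at least 1 TPM. HM and WT differed widely, with 51.4% of 14043 genes called, 19.4% higher and 32.0% lower in HM. Of the 6 hosts, 5 were called: Hnrnpk and Mir17hg higher in HM, and Smc4, Ctdspl and Ctdsp2 lower. The median log2 fold change of all 6 hosts, with Mcm7 included, was -0.13, beside -0.09 for all genes tested. That median of all genes was 0.02 after quantile normalization and 0.08 after centring of samples, a shift of more than 0.1, and the share of higher genes among those called moved from 37.7% to 51.1% and 61.0%. Changes of host genes near 0.1 to 0.2 therefore depend on the scaling, as given for each below. With pair means as replicates, none of the 6 hosts passed in HM against WT by limma, 4 of 6 had an unadjusted p under 0.05, and 3414 genes were called in all. The share of all genes at that unadjusted p is not given here, so the count of 4 cannot be set against it. The unequal-variance test per gene called the same number of hosts, 5 of 6.

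Mir17hg, the transcript of the oncogenic miR-17 cluster, rose in HM. Its TPM was 5.93 at the lowest, 7.82 at the median and 9.0 at the highest in WT, and 9.42, 11.2 and 15.3 in HM. All HM samples lay above all WT samples, as did 10.6% of genes tested. It was the only host of the 6 without overlap of HM and WT, beside 28.5% of genes without overlap in either direction. HM samples 5 and 6 were the highest, at 14.3 and 15.3. The log2 fold change was 0.56 (standard error 0.13, adjusted p = 0.00311 from limma), 0.76 after quantile normalization and 0.74 after centring, and the mean in HM was 1.55 times that in WT. With pair means the adjusted p was 0.0593. In HetKO the values were 5.63, 6.91 and 12.7 TPM, with samples 2 and 5 at 12.7 and 10.8 and the other 4 at 5.63 to 7.02. HetKO against WT gave 0.05 (adjusted p = 0.87 from limma), and -0.20 without samples 2 and 5. HM was above HetKO by 0.51, with overlap (adjusted p = 0.0483 from limma). That call was lost in 13 of 23 alternatives, including 8 of the 12 in which 1 sample was left out: HM sample 3, 4, 5 or 6 or HetKO sample 1, 3, 4 or 6, with adjusted p = 0.0662 to 0.105.

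Ctdsp2 fell in HM. In WT its lowest, median and highest TPM were 42.3, 55.6 and 58.3, and in HM they were 28.9, 38.9 and 42.4. Only WT sample 1 lay within the HM range, and HM samples 5 and 6 were the lowest at 30.6 and 28.9. The log2 fold change was -0.51 (standard error 0.11, adjusted p = 0.00235 from limma), -0.47 after quantile normalization and -0.33 after centring. The mean in HM was 0.699 times that in WT. In HetKO the values were 42.9, 50.8 and 53.8 TPM, with samples 2 and 5 lowest, and the change from WT was -0.10 (adjusted p = 0.5 from limma). All HM samples lay below all HetKO samples, as did 9.27% of genes tested, and no host had all HM samples above all HetKO samples, beside 6.23% of genes. The difference had a log2 fold change of -0.41 (adjusted p = 0.0111 from limma). With pair means the adjusted p was 0.0541 against WT and 0.177 against HetKO. Of the 50-base stretches of Ctdsp2, 10.8% also occur in the pseudogene Gm9770, so reads could be split between them. Gm9770 also fell in HM against WT, by 0.39 on the log2 scale (adjusted p = 0.00736 from limma).

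Ctdspl was near the low end of expression. Its lowest, median and highest TPM were 3.88, 4.69 and 5.51 in WT, 3.26, 3.71 and 4.48 in HM, and 2.06, 3.14 and 5.27 in HetKO. The HetKO samples spanned more than both other lines together, with samples 2, 5 and 6 at 2.82, 2.06 and 2.83. HM was below WT by 0.26 on the log2 scale with overlap (log2 fold change -0.26, adjusted p = 0.0441 from limma). This call was lost in 15 of 21 alternatives, among them leaving out WT sample 1, 2, 3 or 4 or HM sample 1, 2, 4 or 6, at adjusted p = 0.0615 to 0.0985, and both scalings, at -0.03 after quantile normalization and -0.08 after centring. HetKO against WT gave -0.37 (adjusted p = 0.169 from limma) and HM against HetKO 0.11 (adjusted p = 0.634 from limma).

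Hnrnpk was higher in HM. The lowest, median and highest TPM were 713, 745 and 801 in WT, 800.4, 891 and 906 in HM, and 735, 813 and 886 in HetKO. The only overlap of HM with WT was HM sample 1 at 800.4 with WT sample 1 at 801. The log2 fold change was 0.21 (standard error 0.04, adjusted p = 0.00144 from limma), 0.12 after quantile normalization and 0.39 after centring. HM thus exceeded WT by 16.1% of the WT mean. HetKO lay between, at 0.12 against WT (adjusted p = 0.168 from limma), and HM against HetKO was at 0.10 (adjusted p = 0.198 from limma). The latter was 0.01 after quantile normalization, and it passed after centring, at 0.21 (adjusted p = 0.0411 from limma), and without HetKO samples 2 and 5, at 0.16 (adjusted p = 0.0315 from limma). With pair means the adjusted p for HM against WT was 0.0715. Of the 50-base stretches of Hnrnpk, 13.3% occur in the pseudogene Gm7964, which was at 41.8 ± 2.37 TPM in WT and 48.9 ± 2.18 in HM (SD, n = 6 each) and also passed the test in HM, at 0.22 (adjusted p = 0.00385 from limma).

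Smc4 was lower in HM. Its lowest, median and highest TPM were 148, 161 and 174 in WT, 129, 138 and 149 in HM, and 138, 156 and 184 in HetKO. Of the WT samples, only sample 4 at 148 lay within the HM range. The log2 fold change was -0.22 (standard error 0.05, adjusted p = 0.00445 from limma), and -0.31 after quantile normalization. After centring it was -0.04 (adjusted p = 0.444 from limma) and no longer passed, and with pair means the adjusted p was 0.0837. HetKO against WT gave -0.02 (adjusted p = 0.864 from limma). HM against HetKO was at -0.20 (adjusted p = 0.0658 from limma). HetKO samples 2 and 5 were the lowest at 138 and 141, and without these samples that difference was -0.29 and passed (adjusted p = 0.00637 from limma). It also passed without sample 2 alone or sample 5 alone, at adjusted p = 0.0283 and 0.0385.

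Mcm7 did not pass in any of the 3 comparisons. Its lowest, median and highest TPM were 274, 281 and 302 in WT, 251, 279.97 and 294 in HM, and 261, 279.7 and 290.1 in HetKO. HM samples 2 and 3 were the lowest of HM. The log2 fold change of HM against WT was -0.05 with a 95% interval from -0.15 to 0.05 (adjusted p = 0.422 from limma). Its direction rested on the scaling, at -0.21 (adjusted p = 0.00756 from limma) after quantile normalization and 0.13 (adjusted p = 0.0595 from limma) after centring, and it was 0.00 without HM samples 2 and 3. HetKO against WT gave -0.03 and HM against HetKO -0.01. The pseudogene Gm5487 shares 16.5% of the 50-base stretches of Mcm7 but was listed at 0.33 to 0.90 TPM.

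In HetKO against WT, 10.2% of 13999 genes were called, 3.71% higher and 6.44% lower in HetKO. None of the 6 hosts passed by limma. Of the 6, 2, Hnrnpk and Ctdspl, had an unadjusted p under 0.05, and the unequal-variance test per gene called none, with none at an unadjusted p under 0.05. These counts at an unadjusted p have no share of all genes beside them and are not read as a difference from it. No host was without overlap between HetKO and WT, beside 8.21% of genes, 3.07% with all HetKO samples higher and 5.14% with all lower. Between HM and HetKO 34.6% of 13762 genes were called, 14.0% higher and 20.6% lower in HM, and 2 of the 6 hosts passed, Mir17hg higher and Ctdsp2 lower. These comparisons share samples with that of HM and WT and are not independent of it.

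**Figure D3:**
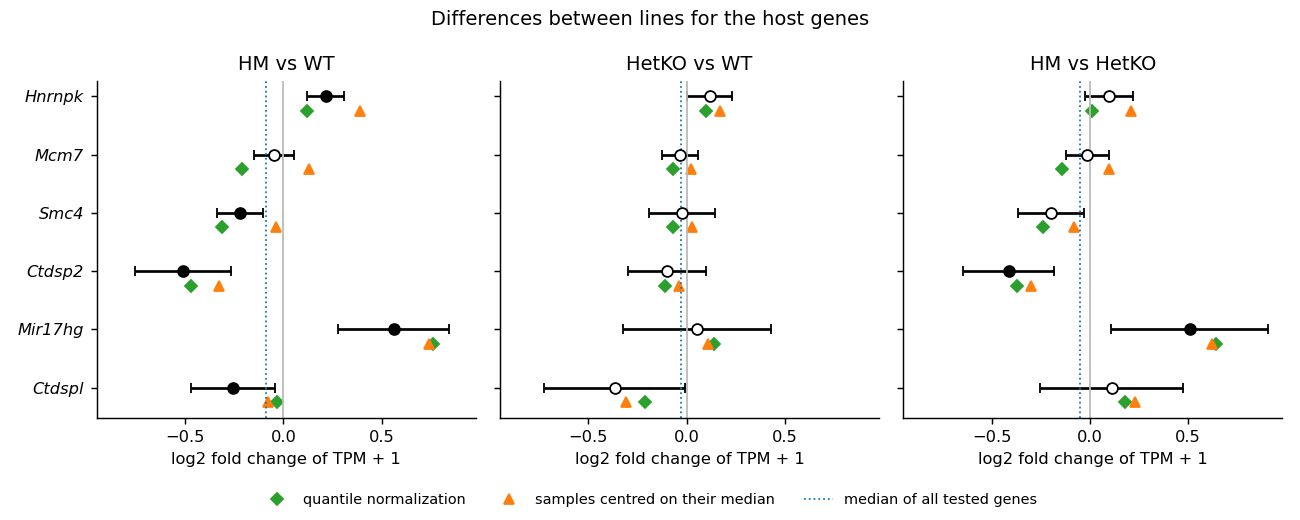
Log2 fold change of TPM + 1 for each host gene in the 3 comparisons, with 95% confidence intervals from limma (n = 6 per line). Filled circles mark an adjusted p under 0.05, diamonds and triangles the values after quantile normalization and after centring of samples, and the dotted line the median of all genes tested. Mir17hg lies right and Ctdsp2 left of 0 under each scaling in HM against WT, while Mcm7 changes side.

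The hosts were next set against the genes they work with. The MCM helicase is built from Mcm2 to Mcm7, so Mcm7 was compared within each sample with the mean of the other 5 subunits on the log2(TPM + 1) scale. This difference was 0.59 ± 0.05 in WT, 0.49 ± 0.03 in HetKO and 0.60 ± 0.12 in HM (SD, n = 6 each). It was smaller in HetKO than in WT, with a change of -0.10 (two-sided exact permutation test, p = 0.00649, adjusted p = 0.0195 over the 9 tests of partner differences), and the HetKO values of 0.45 to 0.53 overlapped the WT values of 0.51 to 0.66. The call was lost after quantile normalization (adjusted p = 0.0584, exact permutation test) and with pair means (adjusted p = 0.3, exact permutation test). The difference between HM and WT was 0.01 (exact permutation p = 0.881). HM samples ranged from 0.45 to 0.79, the widest of the 3 lines. Of the 5 partners, Mcm6 fell by 0.36 and Mcm5 by 0.19 on the log2 scale (adjusted p = 3.94e-05 and 0.00355 from limma), in HM, and Mcm2, Mcm3 and Mcm4 did not pass, at 0.06, 0.11 and 0.11.

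Smc4 pairs with Smc2 in both condensins. The Smc4 minus Smc2 difference was 1.13 ± 0.17 in WT, 1.22 ± 0.16 in HetKO and 0.74 ± 0.15 in HM (SD, n = 6 each). It was lower in HM than in WT, with a change of -0.40 (two-sided exact permutation p = 0.00433, adjusted p = 0.0195) and lower than in HetKO, with a change of -0.48 (exact permutation p = 0.00216, the smallest that 6 against 6 samples can give, adjusted p = 0.0195). All HM samples, at 0.55 to 0.93, lay below all HetKO samples, at 1.08 to 1.42, and of the WT samples only sample 4, at 0.90, lay within the HM range. Smc2 itself was at 0.17 in HM against WT (adjusted p = 0.0275 from limma), and this call was lost after quantile normalization (0.16, adjusted p = 0.0612 from limma) and with pair means (adjusted p = 0.222 from limma). With pair means the adjusted p was 0.3 for both differences, where 3 values per line cannot give an exact permutation p below 0.1.

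Ctdspl minus Ctdsp2 was -3.24 ± 0.22 in WT, -3.51 ± 0.33 in HetKO and -2.99 ± 0.33 in HM (SD, n = 6 each). HM exceeded HetKO by 0.52 (two-sided exact permutation p = 0.0216, adjusted p = 0.0487), with overlap. The call was lost under 12 alternatives, with 4 of the 6 HM samples and 4 of the 6 HetKO samples each able to end it by being left out, at adjusted p = 0.0662 to 0.107. HM against WT gave 0.26 (exact permutation p = 0.156) and HetKO against WT -0.27 (exact permutation p = 0.13).

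**Figure D4:**
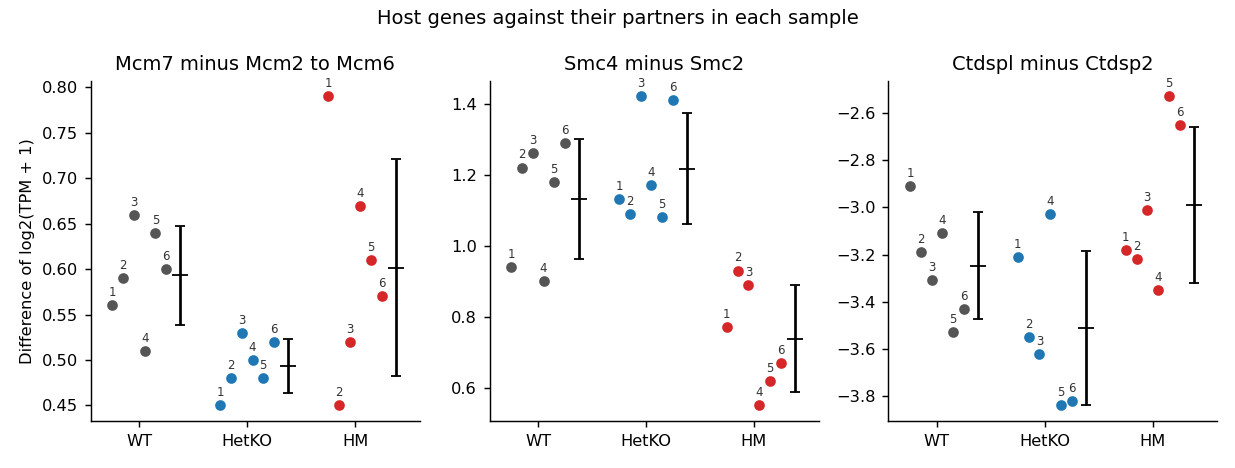
Difference of log2(TPM + 1) between a host gene and its partner or partners in each sample, by line, with sample numbers above the points and the mean ± SD (n = 6). The axes do not start at 0. HM lies lowest for Smc4 minus Smc2, at 0.55 to 0.93, and HetKO lowest for Mcm7 minus the mean of Mcm2 to Mcm6, at 0.45 to 0.53.

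Wider groups were then counted in HM against WT, beside a median log2 fold change of -0.09 over all genes tested. Of 8 condensin genes, 6 fell, 1 rose and 1 did not pass, with a median of -0.30. The share called was 87.5%, beside 51.4% of all genes, 19.4% higher and 32.0% lower in HM. The largest falls were in Ncaph2, a condensin II subunit, from 139 ± 12.03 to 86.6 ± 7.63 TPM, and Ncapg, a condensin I subunit, from 91.1 ± 2.01 to 61.3 ± 7.25 TPM (SD, n = 6 each). The gene that rose was Smc2. After quantile normalization 6 fell and none rose, with a median of -0.33 beside 0.02 for all genes, after centring 4 fell and 2 rose, and with pair means 4 fell and none rose.

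Of 24 hnRNP and poly(C)-binding protein genes, 13 rose, 3 fell and 8 did not pass, with a median of 0.18. The share called was 66.7%, beside 51.4% of all genes, 19.4% higher and 32.0% lower in HM. After quantile normalization the median was 0.09, beside 0.02 for all genes, so the distance of the group from all genes was much smaller on that scale. Hnrnpd, an AU-rich element binding protein, rose from 310.3 ± 54.7 to 507 ± 58.6 TPM, and Hnrnph2, a splicing factor, from 67.9 ± 4.31 to 112 ± 35.2 TPM (SD, n = 6 each). The counts were 12 and 4 after quantile normalization, 15 and 1 after centring, and 9 and 0 with pair means. Hnrnpk, at 0.21, was close to the median of the group.

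Of 7 CTD phosphatase genes, 2 rose, 3 fell and 2 did not pass, with a median of 0.20. This was 71.4% called, beside 51.4% of all genes. After quantile normalization and after centring 4 rose and 2 fell, and with pair means 1 rose and 1 fell. The other small phosphatase with a miR-26 hairpin, Ctdsp1, which carries miR-26b, was higher in HM than in WT. Its lowest, median and highest TPM were 16.9, 18.3 and 21.9 in WT, 21.7, 25.4 and 27.4 in HetKO and 19.4, 22.03 and 26.5 in HM. It rose by 0.38 on the log2 scale in HetKO (adjusted p = 0.0144 from limma) and by 0.25 in HM (adjusted p = 0.03 from limma), and neither passed with pair means, at adjusted p = 0.409 and 0.204. The largest changes of the group were in Ctdspl2, which fell from 43.2 ± 8.13 to 24.3 ± 2.74 TPM, and Ctdp1, the large CTD phosphatase, which rose from 24.5 ± 2.85 to 40.2 ± 6.14 TPM (SD, n = 6 each).

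Of 23 genes of the MCM helicase and its loading, 4 rose, 8 fell and 11 did not pass, with a median of -0.05. The share called, 52.2%, was close to the 51.4% of all genes. After centring 10 rose and 3 fell, so the balance of this group rested on the scaling, and with pair means 1 rose and 4 fell. Cdc7, the kinase that fires origins, fell from 54.1 ± 7.70 to 31.9 ± 1.18 TPM and Cdc45, which joins the helicase as it is activated, from 46.1 ± 5.66 to 29.3 ± 4.12 TPM (SD, n = 6 each). Both had all HM samples below all WT samples, as did 2525 of the 14043 genes tested. In HetKO against WT none of the MCM genes and none of the condensin genes passed by limma or by the unequal-variance test. Of all genes 10.2% passed there by limma. By either test 1 MCM gene and 1 condensin gene had an unadjusted p under 0.05. In HM against HetKO 1 MCM gene rose and 6 fell, 30.4% of the group, and 1 condensin gene rose and 4 fell, 62.5%. Of all genes 34.6% were called in HM against HetKO. With pair means none of the MCM or condensin genes passed by limma in that comparison, and after centring 2 MCM genes rose and 2 fell, and 1 condensin gene rose and 2 fell. At an unadjusted p under 0.05, pair means left 4 MCM and 3 condensin genes. For the counts at an unadjusted p in this paragraph the share of all genes is not given here, so they cannot be set against it.

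Of 5 factors known to act at the Mir17hg promoter, 2 rose, 1 fell and 2 did not pass in HM against WT, with a median of 0.60. This was 60.0% called, beside 51.4% of all genes. Mycn, a MYC family activator, was at 23.6, 25.7 and 28.7 TPM in WT at the lowest, median and highest, and at 52.5, 56.7 and 141 TPM in HM, with a log2 fold change of 1.495 (adjusted p = 0.00043 from limma). HM samples 5 and 6, the highest for Mir17hg, were at 140.4 and 141.1 TPM for Mycn, and the other 4 at 52.5 to 57.2. In HetKO, samples 2 and 5, again the highest for Mir17hg, were at 118 and 113 TPM, against 23.0 to 34.8 in the other 4. Within the narrow range of WT the highest for Mycn, samples 3 and 4 at 28.7 and 27.7 TPM, were not the highest for Mir17hg. They were at 6.82 and 7.34 TPM for it, below the WT median of 7.82. Mycn in HetKO against WT did not pass, at 0.84 (adjusted p = 0.158 from limma). E2f3 rose in HM from 19.5 ± 0.928 to 32.6 ± 2.38 TPM and E2f1 fell from 29.0 ± 5.05 to 15.5 ± 2.51 TPM (SD, n = 6 each). Both were without overlap of HM and WT, as were 28.5% of the 14043 genes tested, in either direction. Myc and E2f2 did not pass, at 0.60 and -0.13. Whether any of these factors plays a part in the level of Mir17hg was not tested.

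**Figure D5:**
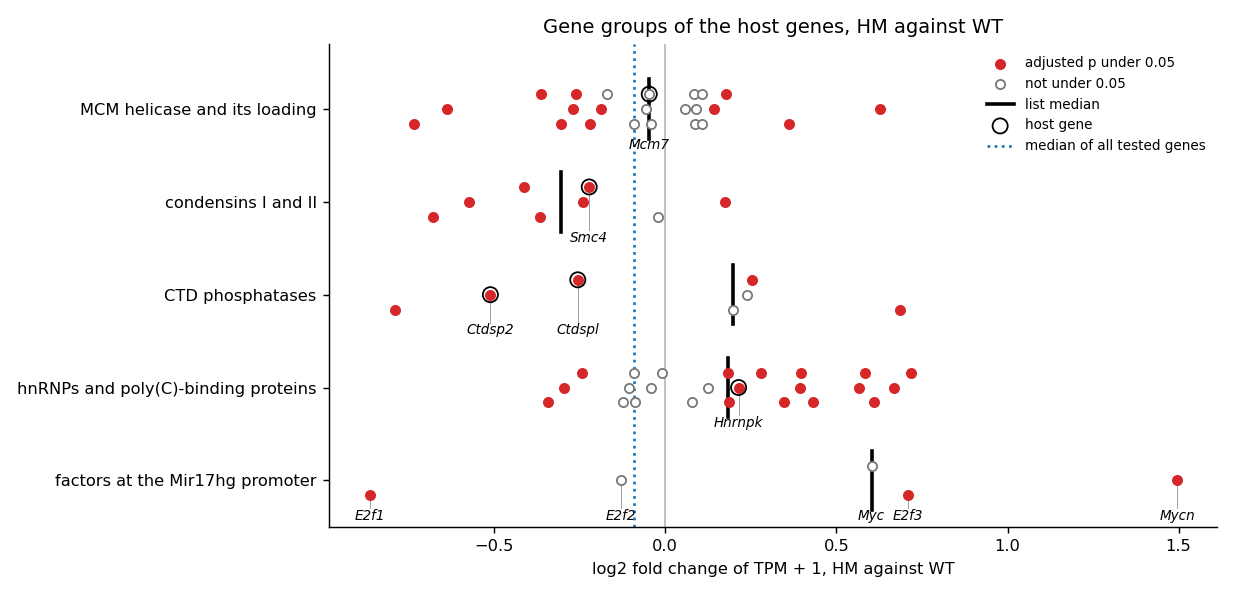
Log2 fold change of TPM + 1 in HM against WT for the genes of 5 groups, one point per gene, red where the adjusted p from limma was under 0.05. Host genes are ringed, black bars mark group medians and the dotted line the median of all genes tested. Condensin genes lie mostly left and hnRNP genes mostly right of 0, and Mycn is the farthest right at 1.495.

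The other annotated hosts of miRNA genes were counted in the same way. Of these 918 genes, 673 were tested in HM against WT, and 55.9% were called beside 51.4% of all genes, with 128 higher and 248 lower and a median of -0.15. With the 6 studied hosts included, 130 were higher and 251 lower, and after centring 210 and 166. The farthest from 0 were Meg3 and Rian, noncoding hosts of the imprinted miRNA cluster on chromosome 12. Meg3 was at 252 to 297 TPM in WT and at 52.8 to 217 in HetKO, and in HM it was listed at 0 in 5 samples and at 0.01 in 1. Rian was at 371 to 431 TPM in WT, 110.4 to 362 in HetKO and 0.44 to 2.82 in HM. HetKO samples 2 and 5 were the lowest of their line for both. The related host Dleu2, which carries miR-15a and miR-16-1, did not pass in any comparison, at 8.67 ± 1.73 TPM in WT, 8.48 ± 1.34 in HetKO and 7.46 ± 1.32 in HM (SD, n = 6 each). Kis2, next to the miR-106a cluster on the X chromosome, was too low to be tested, at 0.00 to 0.42 TPM in WT and 0.57 to 1.50 in HM.

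The surroundings of the hosts were then described. Within 5 Mb of Mir17hg, 11 other genes were tested, with a median of -0.05 in HM against WT, and 10 of them were below Mir17hg. Its nearest coding neighbours were Tpm3-rs7, 1726124 bases away, and Gpc5, 45487 bases away. Tpm3-rs7 rose by 0.81 on the log2 scale (adjusted p = 0.000375 from limma), and Gpc5 was below 1 TPM in all samples. Near Ctdsp2 85 genes had a median of -0.21, and 67 were above Ctdsp2. Near Hnrnpk 80 genes had a median of -0.12, near Ctdspl 83 genes -0.12, near Mcm7 136 genes -0.09 and near Smc4 23 genes 0.12. Smc4 lies 167 bases from Ift80, which is read in the opposite direction and encodes an intraflagellar transport protein. Ift80 also fell in HM, by 0.60 on the log2 scale (adjusted p = 0.00116 from limma), while Trim59 on the other side rose by 0.32 (adjusted p = 0.00125 from limma). Mcm7 overlaps Cops6 and Ap4m1 on the other strand, by 64 and 421 bases, and Hnrnpk overlaps Rmi1 by 1096 bases. The kit keeps the strand, and whether the counting used it is not given in the sources used here. Rmi1, Cops6 and Ap4m1 did not pass in HM against WT, at 0.03, -0.01 and -0.08.

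The genes whose log2(TPM + 1) followed each host most closely over the 18 samples, among 12111 genes, were Hspd1 and Txndc17 for Hnrnpk (Pearson r of 0.972 and 0.965), Flt1 and Amd2 for Mir17hg (0.952 and 0.951), Gabarap and Katnal2 for Ctdsp2 (0.973 and 0.971), Slc5a3 and Slc31a1 for Smc4 (0.949 and 0.948), Iqgap1 and Fgd2 for Ctdspl (0.882 and 0.854), and Kifc1 and Snrnp48 for Mcm7 (0.826 and 0.825). These values are descriptions over samples that share 3 lines and the alike pairs given above. Of the 12 genes, none is a neighbour or a partner listed here.

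The 3′ UTRs of the coding hosts were searched for 7-base matches to positions 2 to 8 of the 27 hosted miRNAs, on the transcript strand. The longest 3′ UTR of a coding transcript in GENCODE M21 was used, 3489 bases in Ctdsp2, 3349 in Ctdspl, 1301 in Hnrnpk, 136 in Mcm7 and 97 in Smc4, beside a median of 1190 over 12038 tested coding genes. Ctdsp2 and Ctdspl each held 7 matches, Hnrnpk held 2, Mcm7 1 and Smc4 none. For 3 hosts a match was to a studied miRNA from their own introns, shown here with the 7 matching bases in capitals inside 30 bases of GRCm38 sequence. Ctdsp2 matched miR-26a-5p at chromosome 10 from 126997566 to 126997572, Mcm7 matched miR-93-5p and miR-106b-5p at chromosome 5 from 138164631 to 138164637, and Hnrnpk matched miR-7a-1-3p at chromosome 13 from 58392025 to 58392031.
Ctdsp2, miR-26a-5p: agtgttgctctTACTTGAtttgccaaatgc
Mcm7, miR-93-5p and miR-106b-5p: tctcccatgctGCACTTTtttattctgcca
Hnrnpk, miR-7a-1-3p: atgtccctggcATTTGTTcagagcagtgtg

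Such matches are common. The 7 bases for miR-26a-5p were found in 11.5% of the 12038 3′ UTRs, those for miR-93-5p in 14.6% and those for miR-7a-1-3p in 20.9%, without regard to UTR length. Both Ctdspl and Ctdsp2 held 1 match to miR-17-3p and 1 to miR-7a-1-3p, and Ctdspl also held 1 to miR-26a-2-3p, the strand made from the other miR-26a host. For miR-7a-5p, Ctdspl held 2 matches and Ctdsp2 1. A match is a description of the sequence, and binding at these places was not measured here. Of the 3 hosts with a match to miR-7a-1-3p, Ctdsp2 and Ctdspl were called lower and Hnrnpk higher in HM than in WT. The Ctdspl call was lost after quantile normalization and after centring, at -0.03 and -0.08, and none of these calls held with pair means. Whether the matches play a part in these levels was not tested.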

How the data were processed

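The deposited table holds TPM for 55450 genes in 18 samples. The authors merged read pairs with BBMerge and quantified genes with RSEM, and the submitters' processing notes also name cutadapt, STAR and mm10, without versions. TPM keeps no depth, so no counting interval was set and precision was taken from the spread between samples. Samples were grouped by their labels, 6 per line. All gene identifiers matched GENCODE M21 on GRCm38, which gave positions and 3′ UTRs of coding transcripts, and RefSeq on GRCm38.p6 gave miRNA sequences. The host genes and gene groups were chosen with earlier results of these data known.

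For each comparison of 12 samples, a gene entered if it averaged 1 TPM or more. Testing used limma 3.58.1 (R 4.3.3) after a log2(TPM + 1) transform, with a variance trend and Benjamini-Hochberg adjustment over all genes tested. Differences between a host and its partners were tested with two-sided exact permutation tests over every split of the samples, adjusted over 9 tests. Permutation tests ran in scipy 1.17.1 and tables in pandas 2.3.3 under Python 3.11.15. The fits were tested on simulated data. The alternatives were a pseudocount of 0.1 TPM, no filter or a minimum of 5 TPM, centring on the sample median, quantile normalization, an unequal-variance test for each gene, a joint fit of the 3 lines, the replicate number as a block, pair means, leaving out single samples, and leaving out HetKO samples 2 and 5 or HM samples 2 and 3.

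Pairs of alike samples were the matching with the lowest summed robust SD of log2 differences over 683 genes of at least 200 TPM. This matching always gives 3 pairs per line. The robust SD was 0.0493 to 0.105 within pairs and 0.073 to 0.358 between other samples of a line. Besides the hosts, the named genes are Dicer1, the 2 genes of each group with the largest change between HM and WT, the hosts of the most related hairpins, the nearest coding neighbours, the 2 genes most correlated with each host, and partners and pseudogenes that a result turns on. Genes with model names, such as Gm and a number, were left out of the correlated genes.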

Additional observations from a re-analysis of the deposited data

How the results depend on the processing

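Over the 6 hosts and 3 comparisons, 343 of 399 alternative values kept both sign and call, 34 lost a call, 7 gained a call and 15 changed sign. Pair means called 3414 genes in HM against WT, 454 in HM against HetKO and 35 in HetKO against WT, beside 7220, 4765 and 1421, and the unequal-variance test called 852 in HetKO against WT. Leaving out 1 sample gave 6573 to 7350, 3669 to 5203 and 948 to 1517 genes.

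Signs changed where the value was near 0. Centring moved Mcm7 to 0.13, 0.02 and 0.10 in HM against WT, HetKO against WT and HM against HetKO, and Smc4 to 0.03 in HetKO against WT. Without HM samples 2 and 3, Mcm7 was at 0.00 against WT and 0.03 against HetKO. Without HetKO samples 2 and 5, Mir17hg was at -0.20 and Smc4 at 0.07 against WT, and Ctdspl was at -0.07 in HM against HetKO. Leaving out 1 sample gave -0.07 to 0.14 for Mir17hg and -0.07 to 0.02 for Smc4 in HetKO against WT, and -0.03 to 0.01 for Mcm7 in HM against HetKO.

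For the partner differences, leaving out 1 sample gave -0.03 to 0.04 for Mcm7 in HM against WT, 0.07 to 0.14 in HM against HetKO, where it passed without HM sample 2, and 0.43 to 0.62 for Ctdspl minus Ctdsp2 in HM against HetKO. Quantile normalization gave -0.05 for Mcm7 in HM against WT, and ended the calls of Mcm7 at -0.10 (adjusted p = 0.0584, exact permutation test) and of Ctdspl minus Ctdsp2 at 0.54 (adjusted p = 0.0584, exact permutation test). A pseudocount of 0.1 gave 0.57 for the latter (adjusted p = 0.0779, exact permutation test). Pair means left -0.10, -0.40, -0.48 and 0.52 in place, and none of these 4 could pass with 3 values per line. The cause of these moves was not tested.

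Equal sample numbers were not stated to pair the samples, and same-numbered samples correlated by 0.005, 0.062 and 0.021 on average, so the replicate block is given here only. It called 6889, 1206 and 4200 genes in HM against WT, HetKO against WT and HM against HetKO. It ended the calls of Ctdspl at -0.26 in HM against WT and of Mir17hg at 0.51 in HM against HetKO. For the partner differences the block left -0.10 (Mcm7, HetKO against WT), -0.40 and -0.48 (Smc4, HM against WT and HetKO) at an adjusted p of 0.0938 and 0.52 (Ctdspl minus Ctdsp2) at 0.169, by exact sign-flip permutation over 6 pairs. That test can pass the adjustment only where at least 6 of the 9 differences reach its smallest p, so these losses say nothing about stability.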

Other observations

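HetKO samples 2 and 5, a pair of alike samples, stood at an end of their line for many of the genes named above. They were the highest 2 of the 6 HetKO samples for Mir17hg, Hnrnpk, Mycn, Myc, E2f3, Ctdsp1 and T, and the lowest 2 for Smc4, Ctdsp2, Ctdspl, Smc2, E2f1, Ncaph2, Meg3 and Rian. Mcm7 was in the middle of the line in both samples.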
